A study of Mus musculus with 14 samples.

Results

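The genes described here are the ligands and receptors of the epidermal growth factor (EGF) family and the receptor's feedback inhibitor Errfi1. The list of 10 genes holds the ligands Areg, Ereg, Hbegf, Tgfa, Btc and Egf, the receptors Egfr, Erbb2 and Erbb3, and Errfi1. A gene was measured where a probe set of the array carried its symbol and no other. By that rule 9 of the 10 were measured, by 21 probe sets, out of 18193 genes and 45037 probe sets in all. Amphiregulin (Areg) was not analysed here. The probe sets of a gene are numbered by their mean over the 14 arrays, brightest first. Probe set 1 is the lead probe set and stands for the gene, and the others are given beside it.

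The tissue was the mammary gland of female C57BL/6 mice aged 11 to 12 weeks on arrival, with the ovaries removed in every group, the vehicle group included. Treatment followed 7 days after surgery, and glands were taken 3 h later. The 10 groups received vehicle, estradiol (E2, the main ovarian estrogen), one of 4 blockers of estrogen receptors (acolbifene, fulvestrant, raloxifene or tamoxifen citrate), or E2 together with one of them. There were 2 arrays for each of vehicle, E2, acolbifene and E2+acolbifene and 1 for each of the other 6 groups. Each group was a pool of glands, from 8 mice according to the labels, so a level is that of the whole gland with its fat, vessels and connective tissue. The labels do not say whether paired arrays held RNA of separate pools, so p-values cover no more than the difference between paired arrays, and that difference may be technical. In such bulk tissue, fewer cells of a type and less RNA per cell cannot be told apart.

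EGF family ligands are made as membrane proteins and are released by ADAM proteases, above all ADAM17. They bind EGFR or its relatives ERBB3 and ERBB4, which pair with one another and with ERBB2, a partner with no known ligand of its own, and signal through RAS and ERK and through PI3 kinase. ERK activity switches on immediate-early genes such as Fos and Egr1, and also brakes such as Errfi1, which binds the EGFR kinase domain and blocks it, and the ERK phosphatase Dusp6. In the mammary gland, amphiregulin from luminal cells and EGFR in the stroma are known to be needed for estrogen-driven duct growth.

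Levels are the log2 values that the authors deposited, so a difference of 1 is a doubling. Array medians lay between 7.16 and 7.23. A code in the raw-file names, whose meaning is not stated, was R136 on E2 array 1 and on the 6 unreplicated arrays, and R137 on the other 7. The spiked-in hybridization controls had means of 9.86 to 10.04 on the E2 pair and the 6 unreplicated arrays. The pairs of vehicle, acolbifene and E2+acolbifene had spike means of 10.23 to 10.41. The 2 arrays of a group differed over 1.5-fold at 75 to 310 of the 45037 probe sets, most in the E2 pair. The markers of the tissue were present on every array: the luminal keratin Krt8 at 10.03 to 10.70, the epithelial adhesion molecule Epcam at 10.10 to 10.43 and the fat hormone Adipoq at 13.70 to 14.01. Levels of different genes are not compared, since probe sets differ in brightness for the same amount of RNA.

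The promoter sequences of Errfi1 and Egfr are shown because these 2 genes moved most in the family and in the same direction after E2 and after acolbifene. Each is the 250 bases before a transcription start in RefSeq's annotation of mouse assembly GRCm38.p6, on the strand of the gene, from 5′ to 3′. Capitals mark matches to any of 7 motifs searched on both strands, namely the estrogen response element GGTCANNNTGACC and its single arm AGGTCA, an arm of the glucocorticoid response element (AGAACA), the AP-1 site TGACTCA, the cAMP response element TGACGTCA, the GC box GGGCGG and the TATA box TATAAA.
Errfi1 start 1, chr4:150853546-150853795, plus strand: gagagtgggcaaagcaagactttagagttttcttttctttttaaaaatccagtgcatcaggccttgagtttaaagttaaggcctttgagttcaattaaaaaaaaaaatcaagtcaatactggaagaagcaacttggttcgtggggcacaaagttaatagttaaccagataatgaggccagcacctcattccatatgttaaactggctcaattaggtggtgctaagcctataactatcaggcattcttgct
Errfi1 start 2, chr4:150854820-150855069, plus strand: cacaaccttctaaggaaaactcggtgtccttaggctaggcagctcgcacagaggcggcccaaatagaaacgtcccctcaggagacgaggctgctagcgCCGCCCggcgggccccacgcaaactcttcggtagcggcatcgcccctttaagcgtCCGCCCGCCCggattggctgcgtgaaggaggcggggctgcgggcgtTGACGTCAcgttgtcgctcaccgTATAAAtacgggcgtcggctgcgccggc
Egfr, chr11:16751953-16752202, plus strand: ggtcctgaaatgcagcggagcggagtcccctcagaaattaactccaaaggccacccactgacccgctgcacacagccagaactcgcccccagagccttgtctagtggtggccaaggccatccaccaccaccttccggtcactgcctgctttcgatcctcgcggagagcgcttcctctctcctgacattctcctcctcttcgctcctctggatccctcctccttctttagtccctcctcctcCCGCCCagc

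The 2 Errfi1 windows differ in composition, with 38.0% G and C at start 1 and 64.8% at start 2, against a median of 52.4% over 32851 windows of the same length. Start 1 holds none of the 7 motifs. Start 2 holds a cAMP response element that begins at -51, counted from the base before the start as -1, and a TATA box at -28. It also holds 3 GC boxes on the reverse strand, which read CCGCCC as printed, at -152, -97 and -93, the last pair overlapping. The Egfr window, with 60.8% G and C, holds 1 GC box on the reverse strand at -9. Of all windows, 1.55% hold the cAMP response element, 12.4% the TATA box and 32.7% a GC box. The estrogen response element (0.0639% of windows), its single arm (14%), the glucocorticoid arm (16.1%) and the AP-1 site (4.46%) have no match in the 3 windows printed. The single arm shares 5 letters with the full element, so the 2 searches overlap. These matches describe letters and not binding.

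E2 was compared with vehicle to see which genes estradiol moved within 3 h. Errfi1 and Egfr rose, Erbb2 fell, and none of the 5 measured ligands passed the test. That is 3 of 9 genes, where 3.74% of all probe sets passed the test in either direction. The genes were chosen with earlier results of these data known, so such counts, here and below, are a description. Errfi1 stood at 9.74 and 9.59 on the vehicle arrays and at 10.94 and 10.89 on the E2 arrays. Both E2 arrays were thus higher than every other array of the series at this probe set. The fitted rise was 1.25 ± 0.10 (SE, 2 arrays a group), or 2.39-fold, with an adjusted p of 8.06e-05. Errfi1 probe set 2 read 9.55 and 9.63 in vehicle and 11.12 and 11.05 after E2, a 2.82-fold rise (1.50 ± 0.09, adjusted p = 5.72e-06). Its E2 arrays too were the highest of the 14. Against E2 array 2 alone, which shares the raw-file code of the vehicle arrays, the rises were 1.23 (adjusted p = 0.00306) and 1.46 (adjusted p = 0.000338). Both E2 arrays also differed from vehicle in the control spikes, and in this comparison E2 and spikes cannot be told apart.

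Egfr, the receptor that amphiregulin, EGF and TGF-alpha bind, has 7 probe sets, and they did not move alike. The lead probe set stood at 9.45 and 9.57 in vehicle and at 10.38 and 10.46 after E2. The groups did not overlap, and the rise was 0.90 ± 0.11, or 1.87-fold (adjusted p = 0.000999). Egfr probe set 3 read 7.67 and 7.55 in vehicle and 8.16 and 8.19 after E2, a rise of 0.56 ± 0.10 (adjusted p = 0.0107). That call was lost without vehicle array 2 or without either E2 array (adjusted p up to 0.0748). Egfr probe set 2 read 9.01 and 9.04 in vehicle and 8.97 and 8.97 after E2, a difference of -0.05 (adjusted p = 0.797).  The remaining 4 probe sets, with mean levels of 4.63 to 7.72, did not pass. The mean of the 7 probe sets was 0.16 higher after E2 (adjusted p = 0.215).

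Erbb2, the receptor without a known ligand, has 1 probe set. It stood at 8.55 and 8.56 in vehicle and at 8.04 and 8.22 after E2. The fall was -0.43 ± 0.10 (0.744 of the vehicle level) with an adjusted p of 0.0477, just inside the threshold. It no longer passed when any of the vehicle, E2 or acolbifene arrays was left out (adjusted p 0.0548 to 0.254), nor with the raw-file code in the fit. Erbb3, whose own kinase is weak and which signals through its partners, stood at 9.21 and 9.15 in vehicle and at 9.38 and 9.03 after E2. The E2 pair spans the vehicle pair, and the difference was 0.02 (adjusted p = 0.944). Its other probe set differed by -0.32 (adjusted p = 0.118).

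**Figure D1:**
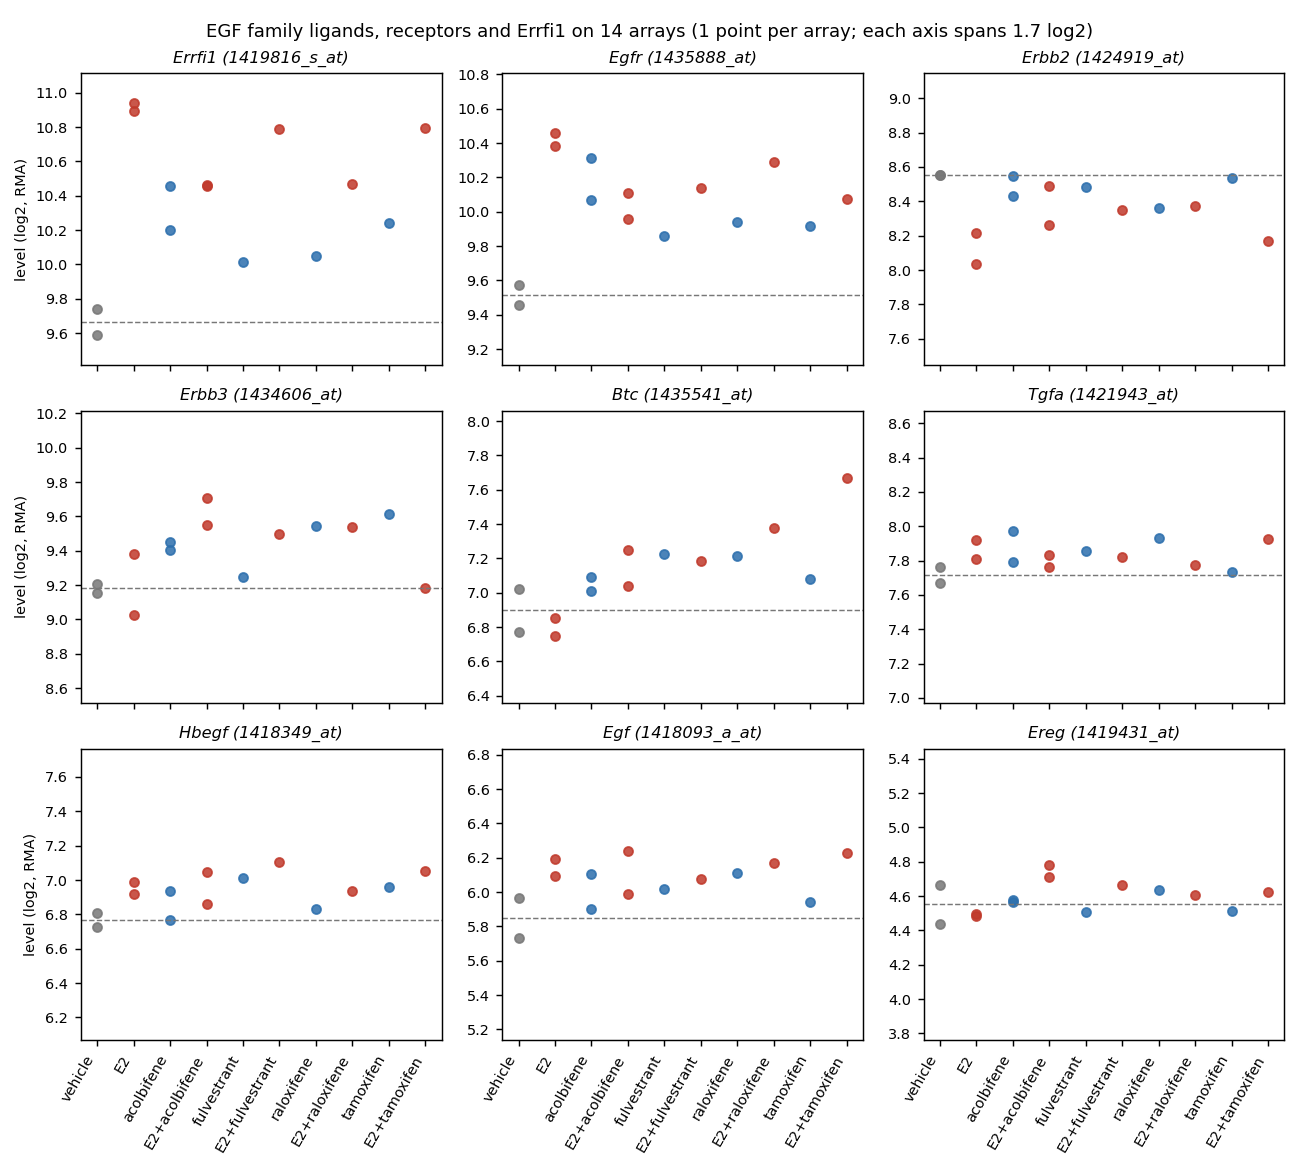
Level (log2) of the lead probe set of each of the 9 genes on the 14 arrays, 1 point per array, by treatment group; the dashed line is the vehicle mean, grey marks vehicle, red groups with E2 and blue blockers alone, and each axis spans 1.7 log2. Errfi1 and Egfr exceed both vehicle arrays in all 12 treated samples, and the highest Btc value, 7.67, is that of the E2+tamoxifen array.

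**Figure D2:**
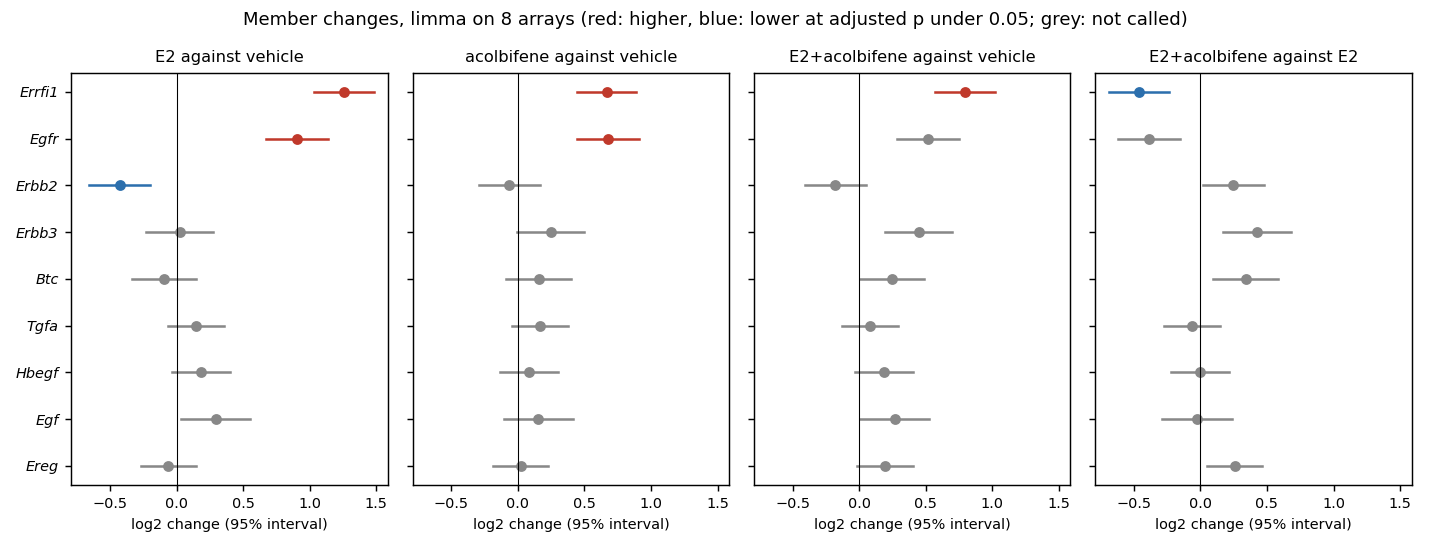
Fitted log2 change with its 95% interval for the lead probe sets in 4 comparisons of the replicated groups, from the limma fit of 8 arrays; red marks a gene higher, blue a gene lower, and grey a gene that did not pass. Errfi1 is red in the 3 comparisons with vehicle and blue in E2+acolbifene against E2.

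The ligands gave small differences after E2. Tgfa, a high-affinity EGFR ligand, ranged from 7.67 to 7.97 over the 14 arrays and differed from vehicle by 0.15 after E2 (adjusted p = 0.43). Hbegf, a ligand of EGFR and ERBB4, ranged from 6.73 to 7.10, with a difference of 0.18 (adjusted p = 0.333). At their lead probe sets both genes had 11 of the 12 treated arrays above both vehicle arrays, within a range of at most 0.37. How many of all probe sets share that pattern was not counted. Their other probe sets did not repeat it. Tgfa probe set 2 lay below both vehicle arrays on 10 of the 12 and above both on 2. Tgfa probe set 3 lay above both on 6, and Hbegf probe set 2 on 3. Btc (betacellulin), also a ligand of EGFR and ERBB4, stood at 7.02 and 6.77 in vehicle and at 6.75 and 6.86 after E2, a difference of -0.09 (adjusted p = 0.681). Egf and Ereg (epiregulin) were dim, with mean levels of 6.05 and 4.59 at percentiles 28.9 and 5.0 of all probe sets, where a change of the RNA is compressed. Egf differed by 0.29 (adjusted p = 0.197) and Ereg by -0.06 (adjusted p = 0.765). The other probe sets of Btc, Hbegf and Tgfa did not pass in this comparison.

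Acolbifene was compared with vehicle to see what the blocker did without E2. Errfi1 and Egfr were higher here too, and no gene of the family was lower. That is 2 of 9 genes, where 0.597% of all probe sets passed in either direction. Errfi1 stood at 10.45 and 10.20 after acolbifene, above both vehicle arrays (9.74 and 9.59) and below both E2 arrays. The rise was 0.67 ± 0.10, or 1.59-fold (adjusted p = 0.0175). At probe set 2 the acolbifene arrays read 10.46 and 10.40, a rise of 0.84 ± 0.09 (1.80-fold, adjusted p = 0.00195). Egfr stood at 10.32 and 10.07 at its lead probe set, 0.68 ± 0.11 above vehicle (1.60-fold, adjusted p = 0.0188). At probe set 3 it stood at 8.37 and 8.19, 0.67 ± 0.10 above vehicle (adjusted p = 0.0148). At Egfr probe set 2, where E2 gave no difference, acolbifene gave 9.36 and 9.37, and the difference of 0.34 did not pass (adjusted p = 0.0944). The acolbifene and vehicle arrays share the raw-file code and the range of the control spikes. The calls of the Errfi1 lead probe set and of both Egfr probe sets were lost without either vehicle array or without acolbifene array 1 (adjusted p up to 0.168), whereas that of Errfi1 probe set 2 was kept (adjusted p up to 0.0373). Each comparison with vehicle shares the 2 vehicle arrays, so a deviation of those arrays would enter all of them.

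E2+acolbifene was compared with E2 to see how the blocker changed the state under estradiol. Errfi1 was lower, 1 of 9 genes, where 3.66% of all probe sets passed in either direction. The E2+acolbifene arrays stood at 10.46 and 10.45, below both E2 arrays (10.94 and 10.89). The fall was -0.46 ± 0.10, or 0.728 of the E2 level (adjusted p = 0.0386), and it no longer passed when either E2 array or either E2+acolbifene array was left out (adjusted p up to 0.175). At probe set 2 the arrays stood at 10.34 and 10.36, against 11.12 and 11.05 under E2, and the fall of -0.73 ± 0.09 (adjusted p = 0.00302) passed in every such fit. Against E2 array 2 alone the fall at probe set 2 was -0.70. Both E2 arrays had lower control spikes (10.01 and 10.04) than the E2+acolbifene arrays (10.38 and 10.23). The blocker and the spikes cannot be told apart here. Egfr, at 10.11 and 9.96, lay below both E2 arrays, with a difference of -0.39 that did not pass (adjusted p = 0.0643).

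Erbb3 moved the other way in that comparison. Its lead probe set stood at 9.70 and 9.55, the highest pair of the 4 replicated groups, 0.43 above E2 (adjusted p = 0.0632). Its probe set 2 stood at 7.68 and 7.48 against 7.06 and 7.00 under E2 and was called higher (0.55 ± 0.10, adjusted p = 0.0239). That call was lost without any of these 4 arrays (adjusted p up to 0.127). Erbb2 (0.25, adjusted p = 0.174) and Btc (0.34, adjusted p = 0.0979) did not pass. Skeletal muscle markers moved in this comparison as well: their summed linear level was 5632 and 13965 on the E2 arrays and 14666 to 15643 on the E2+acolbifene arrays, with 0 of 8 markers called and 9766 to 9934 in vehicle. The part of muscle RNA in the result was not tested.

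E2+acolbifene was also set against vehicle and against acolbifene alone. Against vehicle, where 0.837% of all probe sets passed in either direction, Errfi1 was higher, the 1 gene called of 9. Its rise was 0.80 ± 0.10 (1.74-fold, adjusted p = 0.00634) at the lead probe set and 0.76 ± 0.09 (adjusted p = 0.00282) at probe set 2. The lead call was lost without vehicle array 2 or either E2+acolbifene array (adjusted p up to 0.0903). Egfr was 0.52 above vehicle (adjusted p = 0.0511). Against acolbifene alone, 0 of 9 genes were called by limma, where 9.20% of all probe sets were called. At their lead probe sets 0 of 9 had an unadjusted p under 0.05, where 30.2% of all probe sets did. Errfi1 differed there by 0.13 with a 95% interval of -0.09 to 0.36 at the lead probe set, and by -0.08 (-0.27 to 0.11) at probe set 2. These intervals lie well below the rise of 1.25 and 1.50 that E2 gave without the blocker. Egfr differed by -0.16 (-0.39 to 0.07).

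The difference between these E2 effects, with the blocker minus without it, was tested in the same fit. It was negative for Errfi1 and Egfr, 2 of 9 genes, where 4.47% of all probe sets passed in either direction. For Errfi1 it was -1.12 ± 0.15 (adjusted p = 0.00515) at the lead probe set and -1.58 ± 0.12 (adjusted p = 0.00025) at probe set 2. For Egfr it was -1.06 ± 0.15 (adjusted p = 0.00743) at the lead probe set, -0.87 ± 0.14 (adjusted p = 0.0119) at probe set 3 and -0.03 (adjusted p = 0.913) at probe set 2. With E2 array 2 as the only E2 array, the 4 called differences were -1.10, -1.54, -1.10 and -0.88. Both E2 arrays, array 2 included, had lower control spikes than the vehicle, acolbifene and E2+acolbifene arrays. This difference and the spikes cannot be told apart. The level of Errfi1 at the lead probe set thus ran 9.66 in vehicle, 10.33 with acolbifene, 10.46 with both agents and 10.92 with E2, as group means. The acolbifene pair, 0.25 apart, reaches the E2+acolbifene pair, and these neighbours do not differ beyond their spread.

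**Figure D3:**
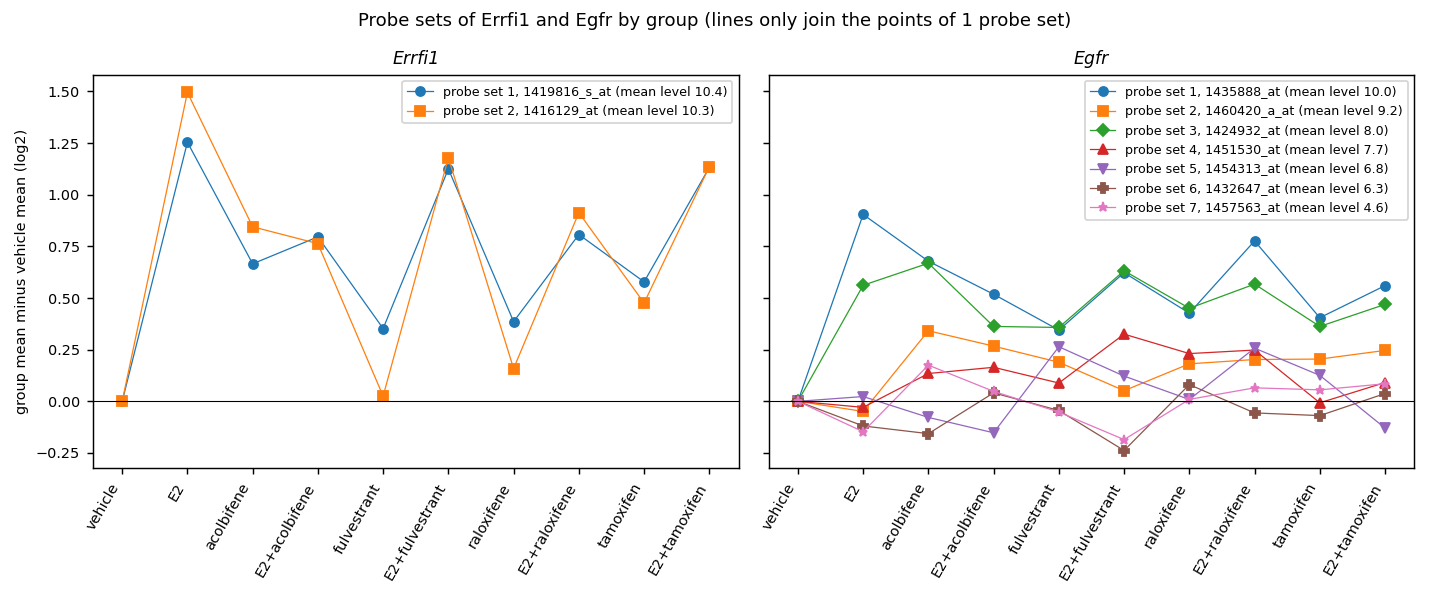
Group mean minus vehicle mean (log2) for the 2 probe sets of Errfi1 and the 7 of Egfr in the 10 groups; lines only join the points of 1 probe set, and 6 groups are 1 array. The 2 Errfi1 probe sets peak together at E2, whereas 2 of the 7 Egfr probe sets rise and probe set 2 of Egfr is lowest there.

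Markers of other cell types moved along with these groups. Of all probe sets, 3.74% passed in either direction for E2 against vehicle, 0.597% for acolbifene against vehicle and 3.66% for E2+acolbifene against E2. Of 8 basal cell markers 3 were higher after E2, the keratins Krt14 (0.65) and Krt5 (0.48) and the transcription factor Trp63 (0.64), and none was lower. The summed linear level of the 8 was 5708 to 5913 in vehicle and 6192 to 6254 with acolbifene. It was 6586 to 6621 with both agents and 7272 to 7330 with E2, the order of the Errfi1 means at the lead probe set. At Errfi1 probe set 2 acolbifene (10.43) lay above E2+acolbifene (10.35). Of the 3 called markers, the Krt14 means ran in the order of the sum. Krt5 was lower with acolbifene (8.52) than in vehicle (8.66). Trp63 was higher with acolbifene (7.58) than with both agents (7.20). Luminal markers summed to 9452 to 9472 in vehicle and 9248 to 9542 with E2, with 1 of 9 higher (Pgr, the progesterone receptor, 2.76) and 2 lower (Foxa1, -1.52, and Cited1, -0.58). Fibroblast markers summed to 55973 to 58174 in vehicle and 66920 to 68296 with acolbifene, with 0 of 6 called in that comparison by limma. With E2 they summed to 53589 to 59036, and the stromal receptor Pdgfra was higher (0.55); it was lower with E2+acolbifene than with E2 (-0.52). Macrophage markers summed to 14073 to 14169 in vehicle and 16248 to 16610 with acolbifene, where 2 of 6 were higher, Cd14 (0.57) and Cd163 (0.51). With E2 they summed to 12687 to 12762, and Cd68 was lower (-0.60). Of 8 keratinocyte markers 2 were lower with acolbifene, Krt10 (-0.59) and Krtdap (-0.72), with sums of 1542 to 1582 in vehicle, 1362 to 1396 with acolbifene and 1669 to 1686 with E2. Lymphocyte markers summed to 15492 to 15792 in vehicle and 11488 to 12672 with E2, where Cd79b (-0.46) and Ighm (-0.45) were lower. The fat hormone Lep was lower after E2 (-0.88), 1 of 7 adipocyte markers. The part of these cell types in the Errfi1 and Egfr results was not tested.

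The other 3 blockers have 1 array per group, and the sources used here give no doses, so their values are set side by side without a comparison between compounds. For Errfi1 at the lead probe set, fulvestrant alone stood at 10.02 and with E2 at 10.79. Raloxifene alone stood at 10.05 and with E2 at 10.47. Tamoxifen alone stood at 10.24 and with E2 at 10.80. All 6 values lie above both vehicle arrays and below both E2 arrays, and each E2 array of a blocker lies above the array of the blocker alone. At probe set 2 the values were 9.61 and 10.77 for fulvestrant, 9.75 and 10.50 for raloxifene and 10.06 and 10.72 for tamoxifen, without and with E2. Fulvestrant alone there lies between the vehicle arrays (9.55 and 9.63).

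These groups were fitted together with the others on 14 arrays, with a term for the raw-file code. Only the E2 pair holds both codes, so that term is the difference between the 2 E2 arrays. E2+blocker is thus set against E2 array 1 alone, and a blocker against vehicle carries the difference within the E2 pair. Each of these groups has 1 array and borrows the spread of the vehicle, acolbifene and E2+acolbifene pairs, since the E2 pair then leaves none. No lead probe set of the 9 genes was called in any of the 9 comparisons with such an array. Per comparison 0 to 4 of the 9 had an unadjusted p under 0.05, where 4.29% to 14.4% of all probe sets did. The share of all probe sets called in either direction was 0.384% for E2+fulvestrant against fulvestrant, 0.0333% for E2+raloxifene against raloxifene and 0.180% for E2+tamoxifen against tamoxifen. Against E2 it was 0.0222%, 0.0955% and 0.0133% for the 3 combinations in that order, and against vehicle 0.153%, 0.00888% and 0.0111% for fulvestrant, raloxifene and tamoxifen. Of the other probe sets, the second of Errfi1 was called in 1 comparison: it was 1.15 ± 0.12 higher with E2+fulvestrant than with fulvestrant (2.23-fold, adjusted p = 0.00485), where the lead probe set gave 0.77 ± 0.15 (adjusted p = 0.0963). The same difference was 0.75 (adjusted p = 0.229) for raloxifene and 0.66 (adjusted p = 0.1) for tamoxifen. These 3 differences each rest on 2 arrays of the same raw-file code. Their spike means, without and with E2, were 9.998 and 9.983 for fulvestrant, 9.886 and 9.914 for raloxifene and 10.035 and 9.861 for tamoxifen. Basal markers summed to 7196 with E2+fulvestrant and 6439 with fulvestrant, and skeletal muscle markers to 9465 and 16278, with 5 of 8 lower. Keratinocyte markers summed to 2640 and 1667, with 5 of 8 higher (Krt1 by 1.49, Krt10 by 1.37, Flg, Krtdap and Lor by 0.98 to 1.01). The part of these cell types in the Errfi1 difference was not tested.

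Egfr on those arrays stood at 9.86 with fulvestrant and 10.14 with E2+fulvestrant, at 9.94 and 10.29 for raloxifene without and with E2, and at 9.92 and 10.07 for tamoxifen. All 6 were above both vehicle arrays and below both E2 arrays. Over the series, Errfi1 and Egfr (lead probe sets, and probe set 3 of Egfr) exceeded both vehicle arrays on each of the 12 other arrays, a pattern that 2.48% of all probe sets share. Erbb2 was below both on all 12, which 3.76% share. Its vehicle arrays lay only 0.0031 apart (8.552 and 8.555). Acolbifene array 2 (8.547) and the tamoxifen array (8.534) lay just below them, by less than the spread. Btc had its highest level, 7.67, on the E2+tamoxifen array, against 6.75 and 6.86 under E2. With the code term the array is set against E2 array 1 alone, and the difference of 0.92 did not pass. Without that term it is set against both E2 arrays, and the difference of 0.87 passed. The second Btc probe set, dim at a mean of 5.19, differed from E2 array 1 by -0.07. Erbb3 ranged from 9.03 to 9.70 over the 14 arrays, with 9.24 and 9.50 for fulvestrant without and with E2, 9.54 and 9.54 for raloxifene, and 9.62 and 9.18 for tamoxifen.

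The order of Errfi1 over all 10 groups, at the lead probe set, was E2 (10.92), E2+tamoxifen (10.80), E2+fulvestrant (10.79), E2+raloxifene (10.47), E2+acolbifene (10.46), acolbifene (10.33), tamoxifen (10.24), raloxifene (10.05), fulvestrant (10.02) and vehicle (9.66). The values from E2+raloxifene to tamoxifen lie within or next to the range of the acolbifene pair (10.20 to 10.45) and are not separated by the spread. Neither are the E2+tamoxifen and E2+fulvestrant arrays, or the raloxifene and fulvestrant arrays. The genes whose 10 group means ran most like those of Errfi1, among 227 genes that were not dim and spanned at least 1 log2, were Synpo (Pearson r = 0.958), Shb (0.952), Zbtb8a (0.934), Jdp2 (0.93) and Prom2 (0.929). Synpo encodes an actin-associated protein, Shb an adaptor protein of receptor tyrosine kinases, and Jdp2 a transcription factor that pairs with JUN. These correlations over 10 groups are a description, since all groups share the arrays and 6 means are single arrays. Prom2 ran from 7.18 in vehicle to 8.70 with E2, and Synpo from 8.34 to 9.40.

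Of the wider pathway, a list of 73 ligands, proteases, signal carriers, brakes and ERK-responsive genes was followed, of which 68 were measured. The list was chosen with earlier results of these data known. Its counts and medians beside those of all genes, here and below, are therefore a description. After E2, 13 of the 68 were higher and 0 lower, beside 428 higher and 291 lower of all 18193 genes. The list median was 0.11, and that of all genes -0.02. Of 14 ERK-responsive genes 6 rose: the AP-1 members Junb (1.02) and Fos (0.51), the zinc finger factors Egr1 (0.52) and Egr2 (0.43), Myc (0.48) and Phlda1 (0.66). The others did not pass. Of these, Ier3 (0.34), Ier2 (0.26) and Plaur (0.14) differed upward. Etv5 (-0.18), Etv4 (-0.16), Fosl1 (-0.12), Elk1 (-0.09) and Egr3 (-0.07) differed downward. Of 19 brakes 5 rose. Socs3, which curbs cytokine receptor signals, rose 2.56-fold (1.36 ± 0.11, adjusted p = 6.25e-05). The receptor brake Lrig1 rose by 0.61, Spred1, an inhibitor of RAS signalling to ERK, by 0.53, and the phosphatases Dusp6 and Dusp1 by 0.52 and 0.47. Rhbdf2 (0.70), a partner that carries ADAM17 to the cell surface, was the 1 of 9 ligand release genes that rose, and the neuregulin Nrg2 (0.44) the 1 of 5 other ligands. None of 20 adaptors and kinases passed, nor did the receptor Erbb4, which was dim (4.41 in vehicle and 4.47 with E2). The count of 13 fell to 5 without vehicle array 1, to 7 without vehicle array 2, to 6 without E2 array 1 and to 8 without E2 array 2. Junb, Socs3, Phlda1 and Lrig1 passed in each of these fits.

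With acolbifene alone 2 of the 68 rose, the protease Adam12 (0.68) and Dusp1 (0.45), and none fell, beside 99 higher and 44 lower of all 18193 genes (0.597% of probe sets). With E2+acolbifene against E2, 11 of the 68 were lower and 1 higher, beside 386 lower and 294 higher of all genes. The list median was -0.14, and that of all genes was near 0. The lower genes held 7 of the 14 ERK-responsive genes: Junb (-0.87), Egr1 (-0.76), Fos (-0.63), Egr2 (-0.61), Ier2 (-0.52), Ier3 (-0.45) and Myc (-0.45). They also held 3 brakes, Socs3 (-1.10), Lrig1 (-0.56) and Dusp6 (-0.55), and Furin (-0.44), a protease that activates proproteins. Lrig3 (0.47), a relative of Lrig1, was higher. The comparison shares its E2 arrays, which had the lower control spikes, with that of E2 and vehicle. The count of 12 fell to 5 without E2 array 1, to 2 without E2 array 2, and to 4 and 2 without E2+acolbifene arrays 1 and 2. Against vehicle, E2+acolbifene had 0 of the 68 called by limma, where 0.837% of all probe sets were called, and 20 at an unadjusted p under 0.05, where 19.4% of all probe sets were. A count of 0 beside so small a share is not read as a result about the list.

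The difference of the E2 effects, with acolbifene minus without it, was negative at 15 of the 68 genes and positive at 0, beside 644 and 287 of all genes. As above, it cannot be told apart from the lower control spikes of the E2 arrays. A negative difference is a smaller rise at some of these genes and a fall in place of a rise at others: Junb differed by 1.02 after E2 without acolbifene and by 0.03 with it, and Myc by 0.48 and -0.41. Socs3 (-1.62 ± 0.15, adjusted p = 0.00077), Junb (-0.99), Myc (-0.89), Dusp6 (-0.88) and Lrig1 (-0.77) led these 15. The others were Adam12, Adam9, Dusp1, Egr1, Egr2, Fos, Ier2, Ier3, Rhbdf2 and Socs5, with differences of -0.70 to -0.55. The count was 3 to 8 when a vehicle, E2 or E2+acolbifene array, or acolbifene array 1, was left out. In the comparisons with 1 array, the 1 gene of the list called was Lrig1, 0.79 higher with E2+fulvestrant than with fulvestrant (adjusted p = 0.03).

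**Figure D4:**
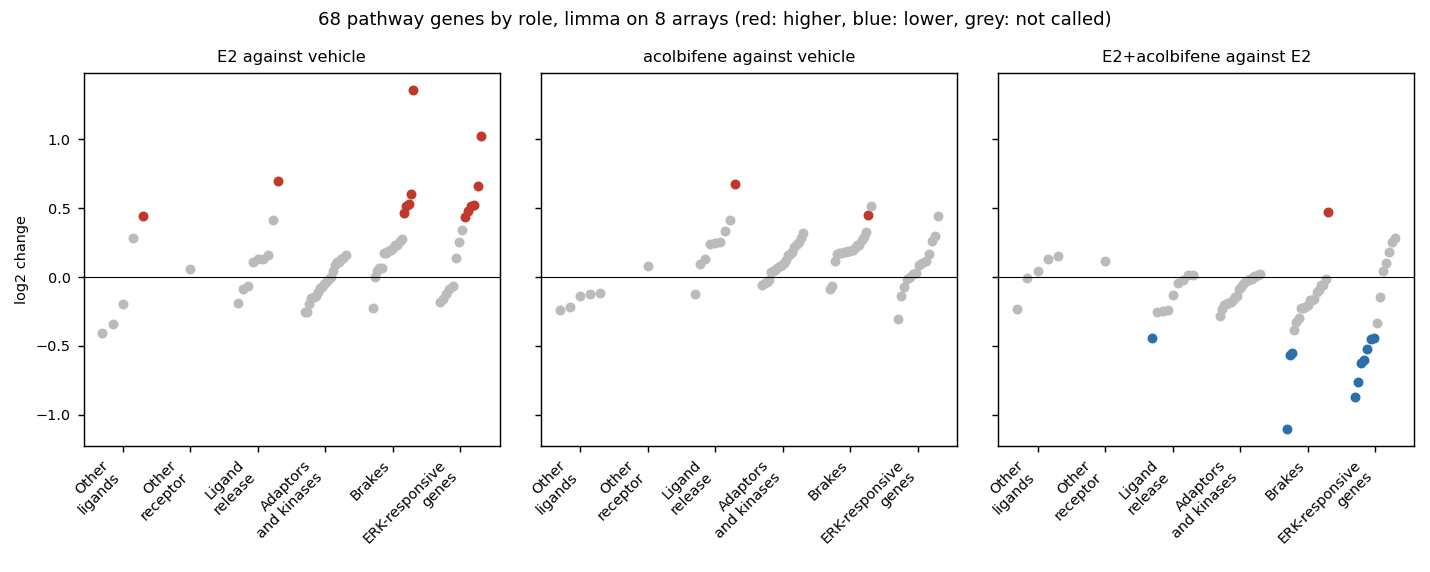
Fitted log2 change of the 68 measured pathway genes by role in E2 against vehicle, acolbifene against vehicle and E2+acolbifene against E2, 1 point per gene; red marks genes that were called higher, blue lower, grey neither. Most red points after E2 lie among the brakes and the ERK-responsive genes, and the others are Rhbdf2 (ligand release) and Nrg2 (other ligands). Most blue points of the right panel lie in the columns of the brakes and the ERK-responsive genes.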

How the data were processed

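RNA from pooled mammary glands was measured on 14 Affymetrix arrays. The authors deposited log2 values, and per the submitters' processing notes these come from RMA (version not given in the sources used here), which corrects background, normalizes quantiles and compresses dim signals. The 45101 probe sets are those of the Mouse Genome 430 2.0 array, whereas the design text names another array. Of 45037 probe sets left after 64 controls, 34945 carried 1 symbol, 932 several and 9160 none here. Symbols looked up by gene ID in RefSeq's GRCm38.p6 table changed 0 times.

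The 6 comparisons of replicated groups used limma 3.58.1 in R 4.3.3 (lmFit, eBayes) on their 8 arrays. The 9 others used 14 arrays and a term for the raw-file code. Benjamini-Hochberg adjustment ran over all 45037 probe sets, and an adjusted p under 0.05 counted as called. A probe set below the 40 percentile of mean level (6.65) is called dim. Precision is limited by how few arrays there are. The code was tested on simulated data.

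Named genes are the listed family, pathway genes that were called, and the 5 genes most like one gene of the family. That gene was to be Areg, which was not analysed here, and Errfi1 took its place after values were seen. Members and lists were chosen with earlier results of these data known. Some genes of the lists were not analysed here: 68 of 73 pathway genes and 63 of 66 markers were measured. RefSeq promoter windows were used for 6 of the 9 measured genes. No E2 dose is given, since the unit in the labels may be wrong. Arrays sharing a replicate number were not paired: their deviations from the group means correlated at -0.12 to 0.12. Other scaling, filters, fits and left-out arrays were tried as alternatives.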

Additional observations from a re-analysis of the deposited data

Results flagged for a closer look

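For 4 probe sets the E2 effect with acolbifene differed from that without it, by the test of that difference itself in the fit of 8 arrays. At Errfi1 it was -1.12 for the lead probe set and -1.58 for probe set 2, and at Egfr -1.06 for the lead probe set and -0.87 for probe set 3. Without acolbifene E2 gave a rise at each. With it, the E2 difference was 0.13 and -0.08 at Errfi1 and -0.16 and -0.31 at Egfr, in the same order of probe sets, and none of these was called. Acolbifene alone stood above vehicle at all 4, by 0.67 to 0.84. Of these 8 arrays only those of E2 had the lower control spikes, and the difference and the spikes cannot be told apart.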

How the results depend on the processing

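Counts of called probe sets moved with most settings. With an intensity trend in limma's prior they were 2720 for E2 against vehicle, 1437 for acolbifene against vehicle, 3030, 1733 and 7219 for E2+acolbifene against E2, vehicle and acolbifene, and 4176 for the difference of E2 effects. For fulvestrant they were then 88, 727 and 232 (E2+blocker against E2, E2+blocker against blocker, blocker against vehicle), for raloxifene 381, 72 and 116, and for tamoxifen 650, 737 and 96. Genes of the family called were then 3 for E2+acolbifene against E2 and against vehicle, and 1 for E2+fulvestrant against fulvestrant, E2+tamoxifen against E2 and E2+tamoxifen against tamoxifen. A repeated quantile normalization gave 1034 probe sets and 0 genes of the family for E2+acolbifene against E2, 2 genes against vehicle, 1141 probe sets against acolbifene, 1114 for the difference and 0 for E2+tamoxifen against E2. Centring on array medians gave 2529 and 2 genes for E2+acolbifene against E2, and 3153 for the difference. Leaving out dim probe sets gave 706 for acolbifene against vehicle, 630 and 2 genes for E2+acolbifene against vehicle, 3 genes for E2+acolbifene against E2, 18 for E2+fulvestrant against E2, 270 and 1 gene for E2+fulvestrant against fulvestrant, 94 for E2+raloxifene against E2, and 13 each for raloxifene and tamoxifen against vehicle. The raw-file code in the fit, which leaves E2 array 2 alone to stand for E2, gave 479 for E2 against vehicle, 284 and 0 genes for E2+acolbifene against E2, and 1113 for the difference. Without that term the unreplicated groups gave 153 for fulvestrant, 90 for raloxifene and 74 for tamoxifen against vehicle, 85 for E2+raloxifene and 1453 (1 gene, Btc) for E2+tamoxifen against E2, and 2 for E2+raloxifene against raloxifene. The replicate block, over numbers that do not pair the samples, gave 1002 and 2303 for E2+acolbifene against E2 and acolbifene and 1193 for the difference, and it changed no call of a family gene. It left 7 of 12 called pathway genes for E2+acolbifene against acolbifene and 9 of 15 for the difference.

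Leaving out 1 array at a time gave 430 to 1615 called probe sets for E2 against vehicle, 27 to 194 for acolbifene against vehicle, 116 to 1481, 34 to 409 and 38 to 3367 for E2+acolbifene against E2, vehicle and acolbifene, and 186 to 1444 for the difference. It gave 6 to 10 for E2+fulvestrant, 28 to 43 for E2+raloxifene and 0 to 6 for E2+tamoxifen against E2, 2 to 15 for E2+raloxifene against raloxifene and 40 to 81 for E2+tamoxifen against tamoxifen. Genes of the family called were then 0 to 2 for acolbifene against vehicle, 0 to 1 for E2+acolbifene against E2 and 0 to 2 for E2+acolbifene against vehicle.

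Of 3421 values of single genes under all alternatives, 3073 kept their side of the threshold, 317 no longer passed and 31 newly passed. Among the 3073, 56 values that were not called changed sign, whereas 0 called values did. Errfi1 probe set 2 passed in every fit tried for the 5 comparisons of replicated groups in which it was called, as did the Errfi1 lead probe set for E2 against vehicle and for the difference. With the code term, 6 comparisons could not be fitted without E2 array 1 and 3 without E2 array 2. Signals near background, those of Egf and Ereg among them, limit what a dim probe set can show.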

Other observations

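The E2 effect under acolbifene was also read on its own. With E2+acolbifene against acolbifene, 11 of the 68 measured pathway genes were lower and 1 higher, where 9.20% of all probe sets were called in either direction. The split of all genes by direction is not given here, so the balance of lower and higher is not read as particular to the list. The largest fall was that of Pik3r1 (-0.59 ± 0.11, adjusted p = 0.0178), the regulatory subunit of PI3 kinase, from 12.1 to 11.5. The shedding proteases Adam9 (-0.45) and Adam17 (-0.36), the adaptors Gab2 (-0.39) and Sos1 (-0.40), the kinases Pik3cb (-0.39) and Akt2 (-0.33), the ERK-responsive genes Etv5 (-0.44) and Myc (-0.41) and the brakes Socs5 (-0.39) and Dusp6 (-0.36) were lower too. Myc and Dusp6 had risen after E2 without acolbifene (0.48 and 0.52). Epgn (epigen), an EGFR ligand whose gene lies beside Ereg, Areg and Btc on chromosome 5, was higher (0.49 ± 0.12, adjusted p = 0.0383). The count of 12 fell to 0 without acolbifene array 1 or either E2+acolbifene array and to 2 without acolbifene array 2.

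The raw-file name of the raloxifene array, after its code, is the same as that of both E2+acolbifene arrays, and what that part of the name stands for is not stated. Over all probe sets the raloxifene array lay nearest to the fulvestrant array (root mean square difference 0.151) and the tamoxifen array (0.154), and farther from the E2+acolbifene arrays (0.177 and 0.183). Errfi1 stood at 10.05 on it, against 10.46 and 10.45 on those arrays.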
